A study of Homo sapiens with 6 samples.

Results

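GDF15, BMP2, BMP4, BMP7, INHBA, INHBB, TGFB1, TGFB2 and TGFB3 encode secreted ligands of the TGF-beta superfamily, and FST encodes follistatin, which binds and neutralises activins. These 10 genes were chosen by symbol, out of 22465 genes with a probe set of their own on the array, and all 10 were among the 18836 genes tested. The names were picked on earlier results of the same arrays, in which GDF15, BMP4 and TGFB1 had been seen to differ, so their differences are given as a description and support nothing. A rule that takes the probe set with the highest mean over the arrays decided nothing, because each of the 10 genes had exactly 1 probe set.

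RNA was measured on 6 whole-transcript arrays of OV2008 cells, an established human line that the labels call ovarian cancer, although other reports trace it to a line of cervical carcinoma. In 3 samples the cells had been transfected with a miR-328-3p mimic, a synthetic duplex RNA that enters Argonaute as the natural microRNA does. In the other 3 they had been transfected with a negative control microRNA, and all were harvested 3 days later after growth in RPMI medium with fetal bovine serum. Every sample had therefore been transfected, and untransfected cells were not analysed here. For the mimic samples the description field names the control microRNA, whereas titles and source names give the mimic and were followed. Whether the samples came from separate cultures is not stated, and p-values then reflect only how far these samples spread, which may be a technical spread.

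Ligands of this superfamily are made as precursors, cleaved by proprotein convertases and secreted as dimers. They assemble type II and type I serine/threonine kinase receptors, which phosphorylate SMAD2 and SMAD3 after TGF-beta or activin, and SMAD1, SMAD5 and SMAD9 after most BMPs. GDF15 is a distant member that cells induce under metabolic and integrated stress, and it signals through GFRAL and its partner RET in the hindbrain. In epithelial cells TGF-beta is known for growth arrest and for loss of epithelial character, and BMPs are known for induction of the ID genes.

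The mature sequence that the mimic represents is shown because the comparison turns on it, with the seed, bases 2 to 8, in capitals. It was taken from the RefSeq table of GRCh38.p14, where it lies at chr16:67202327-67202348 on the minus strand.
hsa-miR-328-3p: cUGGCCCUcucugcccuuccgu
Of 2545 mature microRNAs in that table, 1 holds this seed, which is miR-328-3p itself. Seed matches in the transcripts of the ligands were not analysed here.

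All values are on the deposited log2 scale, on which array medians were 4.14 to 4.17 in the mimic group and 4.10 to 4.14 in the control group. Correlations across probe sets were 0.9953 to 0.9967 within groups and 0.9925 to 0.9946 between groups. The median standard deviation of a gene within a group was 0.0723. The number of arrays, 3 per group, limits the precision. Group means of the 7 epithelial markers ran from 5.89 to 14.99 in mimic cells and from 5.54 to 14.76 in control cells. At a limma adjusted p under 0.05, 5 of the 7 were higher in mimic cells, against 7.21% of all genes. Their median difference was 0.23. EPCAM, 1 of the 7, averaged 12.97 in mimic cells and 12.90 in control cells. Of 6 Müllerian markers, PAX8 averaged 4.38 in mimic cells and 4.33 in control cells, WT1 averaged 3.99 in mimic cells and 4.02 in control cells, and MUC16 averaged 3.56 in mimic cells and 3.41 in control cells, near or below the array medians, as SOX17 was at 4.07 in mimic cells and 4.18 in control cells. FOLR1 averaged 5.69 in mimic cells and 5.70 in control cells. ESR1, the oestrogen receptor, lay well above the medians and was the 1 of the 6 that passed, lower at 7.02 in mimic cells and 7.36 in control cells (limma adjusted p 0.0132). Of 6 squamous markers, 3 had a probe set of their own and were tested, and TP63, KRT6A and KRT17 had none. KRT5, a keratin of squamous epithelium, averaged 17.00 in mimic cells and 17.03 in control cells. Of the other tested squamous markers, DSG3, a desmosomal cadherin, was lower at 13.72 in mimic cells and 14.59 in control cells (difference -0.88, limma adjusted p 8.6e-05), and KRT14 averaged 5.45 in mimic cells and 5.14 in control cells (limma adjusted p 0.0555).

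Of the 10 genes, 2 were higher in mimic cells and 2 were lower at a limma adjusted p under 0.05, and 6 did not pass. Over all 18836 genes, 18.0% passed, 7.21% as higher and 10.8% as lower. The groups did not overlap for 7 of the 10 genes, against 41.6% of all genes, and since these values had a part in the choice of the genes nothing is read from the counts. GDF15 and TGFB1 were higher, TGFB2 and BMP4 were lower, and BMP2, BMP7, TGFB3, INHBA, INHBB and FST did not pass. The median difference over the 10 was -0.02, and that over all genes was 0.01. GDF15 alone differed by 2-fold or more.

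**Figure D1:**
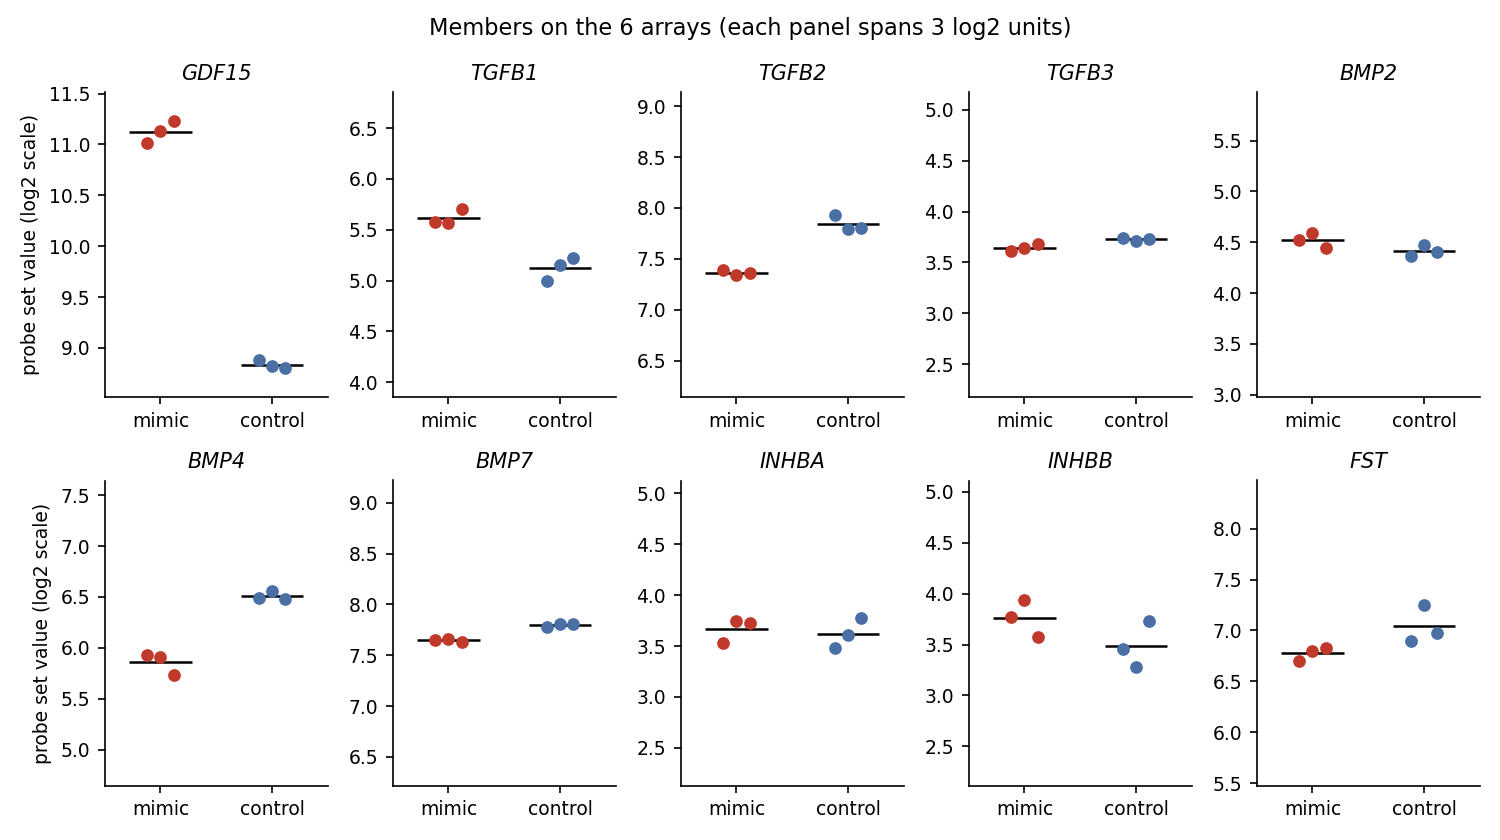
Probe set values on the log2 scale for the 10 genes, with 1 point per array, the 3 mimic arrays on the left and the 3 control arrays on the right of each panel, and bars at the group means. Each panel spans the same 3 log2 units around its own centre, and the gap for GDF15 (11.13 in mimic cells against 8.83 in control cells) is wider than that for any of the other 9.

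GDF15, the stress-induced ligand, was the highest riser of the set. Its values were 11.01, 11.14 and 11.23 in mimic cells, against 8.88, 8.82 and 8.80 in control cells. All mimic arrays lay above all control arrays, and the gap between the groups was far wider than the range within either. The means were 11.13 ± 0.108 in mimic cells and 8.83 ± 0.0384 in control cells (SD, n = 3 each). The difference was 2.29 on the log2 scale with a standard error of 0.0633, which is 4.90-fold on this scale (95% interval 4.41 to 5.44). Its limma adjusted p was 4.56e-05. Of all genes tested, 2 had a larger rise. In cultures, more RNA per cell and a larger share of cells that express a gene cannot be told apart.

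TGFB1 encodes the most widely expressed TGF-beta isoform. It had values of 5.57, 5.57 and 5.71 in mimic cells, against 5.00, 5.15 and 5.22 in control cells. The groups did not overlap, and the spread among control arrays was 0.112 (SD, n = 3). The difference was 0.49 with a standard error of 0.0849, or 1.41-fold (95% interval 1.22 to 1.62), with a limma adjusted p of 0.0135. Without the second mimic array that adjusted p was 0.0457, the highest over 12 other settings.

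TGFB2 encodes a second TGF-beta isoform, which needs the co-receptor betaglycan for high-affinity binding. It ran opposite to TGFB1, at 7.39, 7.34 and 7.36 in mimic cells, against 7.94, 7.79 and 7.80 in control cells. Every mimic value was below every control value. The difference was -0.48 with a standard error of 0.0581, or 1.39-fold lower, with a limma adjusted p of 0.00347. TGFB3, the remaining isoform, had values of 3.61, 3.65 and 3.68 in mimic cells, against 3.74, 3.71 and 3.73 in control cells. It lay below the median of every array, and its difference of -0.08 (95% interval -0.22 to 0.06) had a limma adjusted p of 0.474. The groups did not overlap, although the gap between them was narrow.

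BMP4, a ligand of the BMP branch that patterns mesoderm and many epithelia, was lower in mimic cells. Its values were 5.93, 5.91 and 5.73 in mimic cells, against 6.49, 6.56 and 6.48 in control cells. No array of one group reached the range of the other. The means were 5.86 ± 0.108 in mimic cells and 6.51 ± 0.0425 in control cells (SD, n = 3 each). The difference was -0.65 with a standard error of 0.0742, or 1.57-fold lower, with a limma adjusted p of 0.00272. Of all genes tested, 323 had a larger fall.

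BMP7, a BMP of kidney and epithelial development, gave 7.65, 7.66 and 7.63 in mimic cells, against 7.78, 7.81 and 7.80 in control cells. Both groups were tight and did not overlap, and the difference was small, at -0.15 (95% interval -0.26 to -0.04). Its limma adjusted p was 0.0925, and it passed in 1 of 12 other settings, with arrays centred on their medians, where the difference was -0.19 and the adjusted p 0.0477. BMP2, the closest relative of BMP4, gave 4.52, 4.59 and 4.44 in mimic cells, against 4.36, 4.47 and 4.41 in control cells. These groups overlapped, and the difference of 0.11 (95% interval -0.07 to 0.28) had a limma adjusted p of 0.464.

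INHBA and INHBB encode the activin beta subunits, which pair with each other to form activins or with the inhibin alpha subunit to form inhibins. INHBA values were 3.53, 3.74 and 3.73 in mimic cells, against 3.48, 3.61 and 3.78 in control cells. INHBB values were 3.77, 3.94 and 3.57 in mimic cells, against 3.45, 3.28 and 3.73 in control cells. Both genes lay below the median of every array, and both pairs of groups overlapped. The difference was 0.05 for INHBA (95% interval -0.20 to 0.29, limma adjusted p 0.843) and 0.27 for INHBB (95% interval -0.07 to 0.61, limma adjusted p 0.316). FST values were 6.70, 6.80 and 6.83 in mimic cells, against 6.89, 7.25 and 6.98 in control cells. The groups did not overlap, yet the control arrays were spread by 0.188 (SD, n = 3), and the difference of -0.26 (95% interval -0.51 to -0.02) had a limma adjusted p of 0.177.

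**Figure D2:**
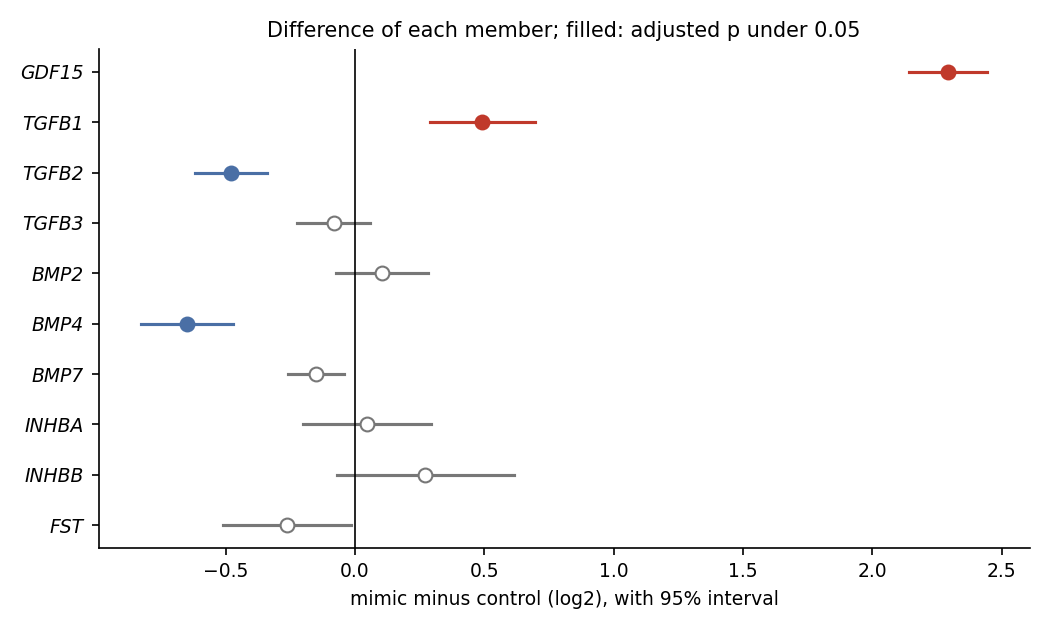
Difference between mimic and control cells for each of the 10 genes, on the log2 scale as mimic minus control, with 95% intervals from the limma fit; filled points passed at an adjusted p under 0.05. GDF15 lies at 2.29 and TGFB1 at 0.49 to the right of 0, and TGFB2 at -0.48 and BMP4 at -0.65 to its left.

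The start-site regions of the 4 genes that passed are printed because each direction held a pair of them. They come from the RefSeq promoter table of GRCh38.p14, which matched 8 of the 10 genes, with 250 bases before the start to 50 after it. Capitals mark matches to any of 6 motifs searched on both strands, and BMP2 and BMP7 had no entry. BMP4 had 3 entries, of which the first is shown.
GDF15, chr19:18385908-18386207, plus strand: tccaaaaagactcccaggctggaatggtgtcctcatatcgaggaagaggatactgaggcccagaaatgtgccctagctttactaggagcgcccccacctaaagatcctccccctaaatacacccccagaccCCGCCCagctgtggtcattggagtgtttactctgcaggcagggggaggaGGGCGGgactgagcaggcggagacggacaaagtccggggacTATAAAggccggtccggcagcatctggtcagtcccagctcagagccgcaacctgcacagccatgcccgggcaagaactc
TGFB1, chr19:41353873-41354172, minus strand: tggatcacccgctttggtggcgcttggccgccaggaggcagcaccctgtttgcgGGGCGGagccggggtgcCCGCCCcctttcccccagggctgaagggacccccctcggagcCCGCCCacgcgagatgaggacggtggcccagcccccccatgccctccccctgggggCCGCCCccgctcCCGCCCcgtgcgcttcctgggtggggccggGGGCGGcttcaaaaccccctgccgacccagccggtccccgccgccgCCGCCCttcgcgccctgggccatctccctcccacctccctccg
TGFB2, chr1:218345086-218345385, plus strand: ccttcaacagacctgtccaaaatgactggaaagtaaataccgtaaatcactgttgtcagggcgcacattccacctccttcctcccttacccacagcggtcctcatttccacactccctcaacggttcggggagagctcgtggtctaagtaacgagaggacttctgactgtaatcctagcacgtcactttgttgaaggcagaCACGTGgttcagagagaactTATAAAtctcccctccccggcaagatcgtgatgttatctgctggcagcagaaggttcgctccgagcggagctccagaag
BMP4, chr14:53955001-53955300, minus strand: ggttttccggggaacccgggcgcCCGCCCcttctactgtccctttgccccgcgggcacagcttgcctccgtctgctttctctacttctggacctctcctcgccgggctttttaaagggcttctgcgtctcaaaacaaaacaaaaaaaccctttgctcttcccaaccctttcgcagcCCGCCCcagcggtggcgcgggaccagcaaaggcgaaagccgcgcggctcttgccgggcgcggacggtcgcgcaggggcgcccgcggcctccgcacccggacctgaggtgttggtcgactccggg
The motifs were the TATA box (TATAAA, in 11.5% of 35116 promoters), the GC box (GGGCGG, 45.0%), the CHOP and C/EBP-ATF element (TGATGNAA, 3.62%), the cAMP response element (TGACGTCA, 1.85%), the AP-1 site (TGANTCA, 7.71%) and the E-box (CACGTG, 7.26%). In the windows shown no match overlapped one of another motif. Positions count from the start site, and a match is a description and not a bound site. GDF15 held a TATA box at position -29 and 2 GC boxes, and TGFB1 held 7 GC boxes and no TATA box. TGFB2 held a TATA box at -29 and an E-box at -49, and the first BMP4 entry held 2 GC boxes and no TATA box. Of the other BMP4 entries, the second held no match to any motif, and the third held 3 GC boxes and an E-box at -83. The GC share was 59.3% for GDF15, 77.3% for TGFB1, 51.7% for TGFB2 and 66.0% for BMP4, with a median of 58.7% over all promoters. The letters of the CHOP and C/EBP-ATF element and of the cAMP response element were in no window of the 8 genes.

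Around these ligands, 126 other genes of the pathway had their own probe set, in lists of further ligands, receptors, antagonists, proteases, latency factors, SMADs, target genes and regulators of GDF15. Of 109 tested, 8 were higher and 13 were lower, which is 19.3% against the 18.0% of all genes, and their median difference was -0.01. The regulators of GDF15 had 6 of 10 genes that passed, and each of the other lists had between 0 and 4.

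Among 15 other ligands tested, 1 passed. BMP3, a BMP that opposes osteogenic BMP signalling, averaged 8.09 ± 0.130 in mimic cells and 8.97 ± 0.0896 in control cells (SD, n = 3 each). The groups did not overlap, and the difference of -0.88 (standard error 0.0821, 1.84-fold lower, limma adjusted p 0.00135) compares with -0.65 for BMP4. INHA, the inhibin alpha subunit, averaged 5.02 in mimic cells and 4.94 in control cells (limma adjusted p 0.579). A further 7 ligands, among them MSTN, GDF3 and BMP10, lay below the filter on low signal and were not tested.

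None of 6 type I receptors passed, and 1 of 4 tested type II receptors did. TGFBR1, the type I receptor of TGF-beta, gave 7.59, 7.60 and 7.62 in mimic cells, against 7.41, 7.44 and 7.49 in control cells, with a limma adjusted p of 0.0957. The BMP and activin type I receptors differed by 0.04 for ACVR1, -0.08 for ACVR1B, 0.11 for ACVR1C, -0.11 for BMPR1B and 0.06 for ACVRL1. BMPR2, the BMP type II receptor, was lower, at 9.50, 9.60 and 9.50 in mimic cells, against 9.77, 9.71 and 9.75 in control cells. Its difference was -0.21 with a limma adjusted p of 0.0376, which was kept in 3 of 12 other settings and reached 0.122 without the third control array. ACVR2A and ACVR2B each differed by -0.01 and AMHR2, the receptor of anti-Müllerian hormone, by -0.02. TGFBR2, the type II receptor of TGF-beta, averaged 3.24 in mimic cells and 3.25 in control cells, below the filter, and was not tested.

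GFRAL, the receptor of GDF15, averaged 3.21 in mimic cells and 3.07 in control cells, below the filter and below every array median. RET, its signalling partner, averaged 3.64 in mimic cells and 3.59 in control cells (limma adjusted p 0.801) and also lay below every array median. Of the other co-receptors, NEO1, which binds repulsive guidance molecules, passed. It averaged 6.45 in mimic cells and 6.89 in control cells, a difference of -0.44 (limma adjusted p 0.00406).

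Of 10 tested antagonists, 1 passed: TWSG1, which binds BMPs together with chordin, was lower. Its values were 10.07, 9.93 and 10.17 in mimic cells, against 10.70, 10.73 and 10.74 in control cells. The groups lay well apart, with a difference of -0.67 (limma adjusted p 0.00163). CHRD, chordin itself, averaged 4.29 in mimic cells and 4.26 in control cells, and NOG, noggin, lay below the filter. The precursor convertase FURIN averaged 4.75 in mimic cells and 4.77 in control cells. Among 9 tested proteases, PLAU, the urokinase that generates plasmin, passed at 6.89 in mimic cells and 6.41 in control cells, a difference of 0.48 (limma adjusted p 0.00271).

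Latent TGF-beta is held by binding proteins and released by integrins, and 2 of 13 such genes passed, in opposite directions. The share that passed was 15.4%, against 18.0% of all genes. ITGB6, a subunit of the epithelial integrin that activates latent TGF-beta, gave 6.56, 6.65 and 6.58 in mimic cells, against 7.16, 7.17 and 7.11 in control cells. That is a difference of -0.55 (limma adjusted p 0.00166), with no overlap. ITGB5, another partner of the same alpha subunit, averaged 6.45 in mimic cells and 6.12 in control cells, a difference of 0.33 (limma adjusted p 0.0228). The call for ITGB5 was kept in 6 of 12 other settings. Of the fits that left out 1 array, only that without the second control array kept it. Its highest limma adjusted p was 0.0917, without the second mimic array. ITGAV, the alpha subunit, averaged 11.00 in mimic cells and 10.98 in control cells.

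**Figure D3:**
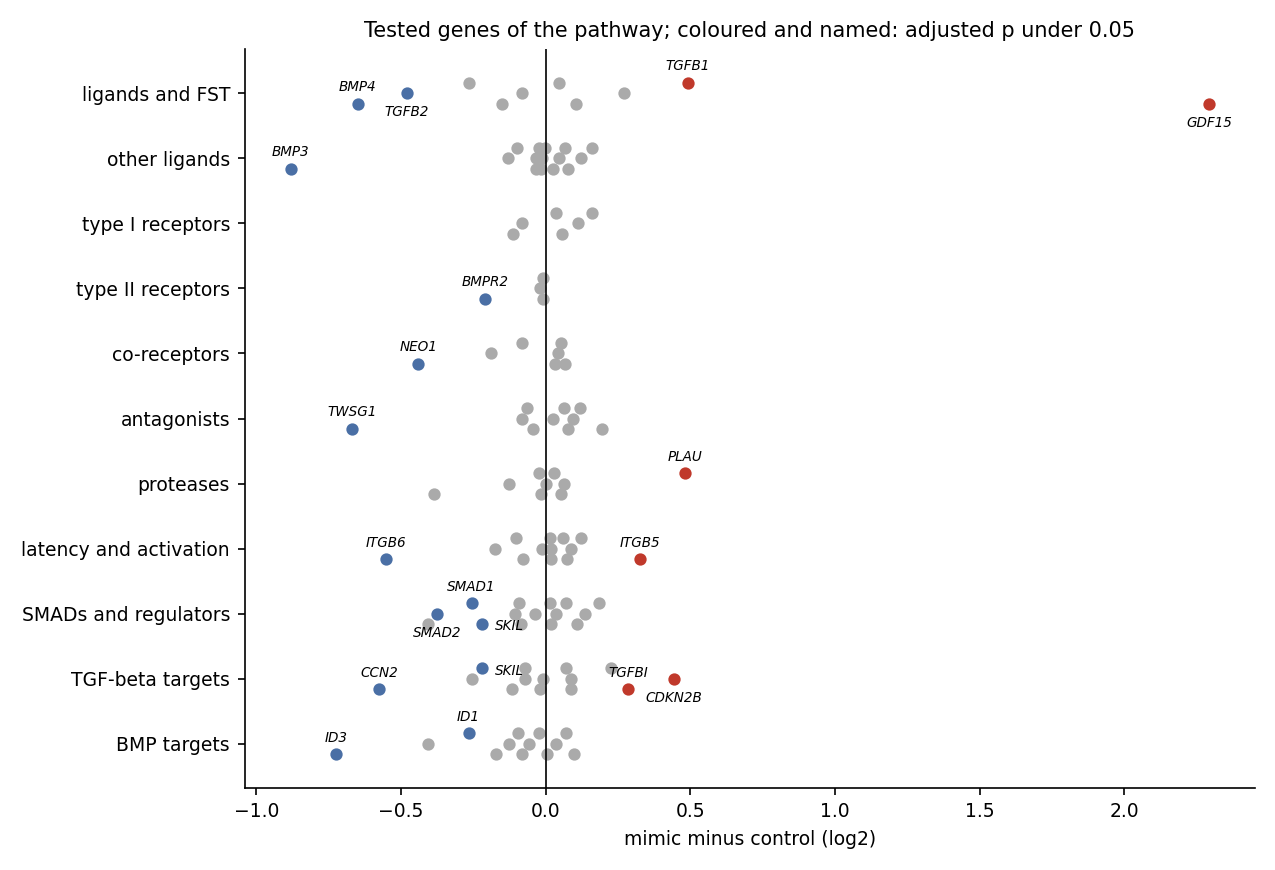
Difference between mimic and control cells, on the log2 scale as mimic minus control, for the 10 genes in the top row and each tested gene of the pathway lists below it; red (higher) and blue (lower) named points passed at a limma adjusted p under 0.05, and vertical offsets within a row only part the points. GDF15 stands alone at 2.29, BMP3 lies at -0.88 and ID3 at -0.72, and the regulators of GDF15 are not drawn here.

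Of 15 SMADs and SMAD regulators, 3 were lower and none higher. Those 3 are 20% of the list, and of all genes 18.0% passed, 10.8% as lower. SMAD2, which carries TGF-beta and activin signals, gave 11.44, 11.53 and 11.45 in mimic cells, against 11.84, 11.87 and 11.85 in control cells. This was a difference of -0.38 (limma adjusted p 0.00246) with no overlap. SMAD1, which carries BMP signals, differed by -0.26 (limma adjusted p 0.0257, at most 0.0861, without the second mimic array), a call kept in 5 of 12 other settings. SKIL, a co-repressor of SMADs and itself a TGF-beta target, differed by -0.22 (limma adjusted p 0.0446, at most 0.145, without the second mimic array), a call kept in 3 of 12. SMAD3, SMAD4 and SMAD5 differed by -0.09, 0.11 and -0.08, and none of them passed.

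The 14 textbook targets of TGF-beta or activin held 2 higher and 2 lower genes, with a median difference of -0.01. The share that passed was 28.6%, against 18.0% of all genes. CCN2, a matricellular protein, averaged 5.36 in mimic cells and 5.94 in control cells, a difference of -0.58 (limma adjusted p 0.00214). CDKN2B, the cell-cycle inhibitor p15, averaged 6.41 in mimic cells and 5.97 in control cells, a difference of 0.44 (limma adjusted p 0.0265). TGFBI, an extracellular matrix protein, averaged 6.87 in mimic cells and 6.59 in control cells, a difference of 0.29 (limma adjusted p 0.0185). CDKN2B and TGFBI each kept their call in 6 of 12 other settings. Of the fits that left out 1 array, none kept CDKN2B, and only that without the second control array kept TGFBI. Their highest limma adjusted p values, 0.0911 for CDKN2B and 0.0747 for TGFBI, came without the second mimic array. SMAD7, the inhibitory SMAD that TGF-beta induces, averaged 4.43 in mimic cells and 4.36 in control cells (limma adjusted p 0.607).

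Of 13 textbook BMP targets, 2 were lower and none higher, with a median difference of -0.08. Those 2 are 15.4% of the list, and of all genes 18.0% passed, 10.8% as lower. ID3, an inhibitor of basic helix-loop-helix factors, gave 8.70, 8.61 and 8.51 in mimic cells, against 9.29, 9.33 and 9.36 in control cells. The groups were clearly apart, with a difference of -0.72 (standard error 0.061, 1.65-fold lower, limma adjusted p 0.000942). ID1, of the same family, gave 15.92, 15.96 and 15.94 in mimic cells, against 16.20, 16.21 and 16.21 in control cells, a difference of -0.27 (limma adjusted p 0.00367). ID2 and ID4 differed by -0.06 and -0.02 and did not pass. SMAD6, the inhibitory SMAD of the BMP branch, averaged 6.26 ± 0.219 in mimic cells and 6.67 ± 0.0847 in control cells (SD, n = 3 each), with a limma adjusted p of 0.0800.

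Transcription factors known to act on GDF15 held 4 higher and 2 lower genes among 10. The share that passed was 60%, against 18.0% of all genes, in a list picked with earlier results of the arrays known. DDIT3, the stress factor CHOP, gave 8.21, 8.12 and 8.15 in mimic cells, against 6.70, 6.90 and 6.83 in control cells. The groups were far apart, with a difference of 1.35 (standard error 0.0668, 2.55-fold, limma adjusted p 0.000163). ATF4, the central factor of the integrated stress response, gave 12.88, 12.82 and 12.86 in mimic cells, against 12.12, 12.09 and 12.21 in control cells. That difference was 0.72 (1.64-fold, limma adjusted p 0.000379). ATF3, a related stress factor, averaged 7.20 in mimic cells and 6.60 in control cells, a difference of 0.60 (limma adjusted p 0.00623). HIF1A, the oxygen-regulated subunit of HIF-1, averaged 14.64 in mimic cells and 14.27 in control cells, a difference of 0.37 (limma adjusted p 0.00269).

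EGR1, an immediate early factor that also acts on GDF15, moved opposite to GDF15. Its values were 11.97, 11.87 and 11.86 in mimic cells, against 12.73, 12.68 and 12.70 in control cells. The difference was -0.80 (1.74-fold lower, limma adjusted p 0.000247), with no overlap. NFE2L2, the oxidative stress factor NRF2, averaged 11.79 in mimic cells and 12.21 in control cells, a difference of -0.42 (limma adjusted p 0.0011). KLF4, SP1, CEBPB and TFEB differed by 0.23, -0.12, 0.16 and 0.03 and did not pass. All these factors were picked with earlier results of the arrays known, and their part in the difference of GDF15 was not tested.

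**Figure D4:**
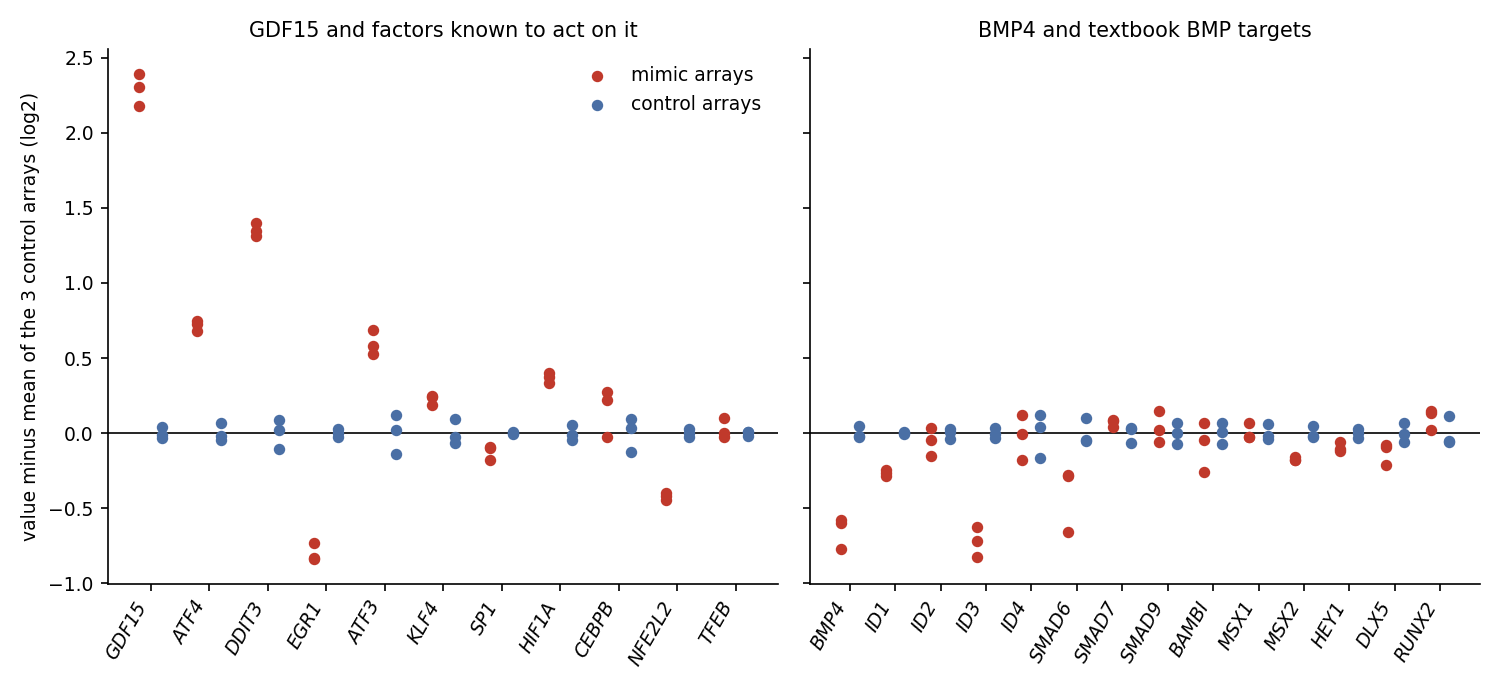
Values of single arrays minus the mean of the 3 control arrays, on the log2 scale, for GDF15 with the factors known to act on it and for BMP4 with the textbook BMP targets; mimic arrays stand left of control arrays for each gene. Of the genes that passed, DDIT3, ATF4, ATF3 and HIF1A lie above 0 with GDF15 and EGR1 and NFE2L2 lie below. On the other side of the figure ID3 and ID1 passed and lie below 0 with BMP4. The other genes drawn did not pass, among them KLF4 at 0.23, CEBPB at 0.16, SP1 at -0.12 and SMAD6 at -0.41.

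Markers of other cell types were set beside these values. All 6 fibroblast markers lay below every array median, with group means of 3.32 to 3.79 in mimic cells and 3.33 to 3.77 in control cells, and none of the 4 that were above the filter and tested passed. Their summed log2 values were 21.5 to 21.8 in mimic arrays and 21.0 to 22.1 in control arrays. Of 6 leukocyte markers 3 were tested, and CD68, a lysosomal protein, was higher, at 9.02 in mimic cells and 8.04 in control cells (limma adjusted p 0.000618), whereas PTPRC averaged 3.44 in mimic cells and 3.41 in control cells, below every array median. The summed leukocyte values were 27.6 to 28.2 in mimic arrays and 26.2 to 26.6 in control arrays. Of 6 endothelial markers 4 were tested, and CDH5 was lower, at 4.80 in mimic cells and 5.48 in control cells (limma adjusted p 0.00247), and PECAM1 averaged 3.05 in mimic cells and 2.93 in control cells. The summed endothelial values were 23.1 to 23.4 in mimic arrays and 23.8 to 23.9 in control arrays. Of 7 epithelial markers 5 were higher, against 7.21% of all genes, and the differences ran from 0.07 to 0.66 with a median of 0.23. CDH1, the adhesion protein E-cadherin, differed by 0.66 (limma adjusted p 0.000944). The part of these markers, and of ESR1 and DSG3, in the results was not tested.

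Genes near in profile were ranked by Euclidean distance over the 6 arrays after centring each gene. Symbols of uncharacterised loci, antisense transcripts, microRNAs and other small RNAs, among others, were passed over. Of the remaining tested genes, the nearest to GDF15 were BNIP3 at 0.189, AKR1C2 at 0.540, BNIP3P1 at 0.597, NDRG1 at 0.633 and STC2 at 0.642 log2 units. BNIP3 differed by 2.19 between mimic and control cells, close to the 2.29 of GDF15, and the other 4 by 2.68, 1.84, 1.82 and 1.79. For BMP4 the nearest were GATD3 at 0.0728, SEMA5A at 0.0805, INPP1 at 0.0819, CDK5RAP3 at 0.0859 and ADM at 0.0885, with differences between -0.70 and -0.60. These distances describe the same 6 arrays that the groups were compared on and carry no test.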

How the data were processed

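The deposited values, 1 for each probe set on each array, were read as log2, which was inferred from their range. They reach 19.9, more than log2 scanner intensities allow, and folds are valid for this scale alone. The submitters' processing notes name MAS5 and no other tool. How probes were summarized, the background step and the genome build were not given in the sources used here. No further normalization was applied. After 2995 control probe sets and the 25% of the others with the lowest mean were left out, 50646 probe sets entered a fit by limma 3.58.1 under R 4.3.3 (empirical Bayes with a mean-variance trend, two-sided, Benjamini-Hochberg over all tested, threshold 0.05). The fit was also run on simulated data with independent noise on each array. That run checks the computation and cannot show whether the samples here are independent. The smallest p of an exact permutation test of 3 against 3 arrays is 0.1, so none was used. Symbols came from the platform annotation, probe sets with several symbols were left out, and the probe set with the highest mean stood for a gene.

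The members and gene lists were chosen with earlier results of these data known. Named were the 10 members, up to 3 passing genes of each list per direction, and all receptors and GDF15 regulators. The 5 nearest genes of GDF15 and BMP4 were also named, with the kinds of symbol given above passed over. Others, the marker genes among them, were named after their values were seen. Some listed genes, BMPR1A among them, were not analysed here. Alternatives were median centring, quantile normalization, other filters, no trend, the replicate block and leaving out each array. Plots were made by matplotlib 3.10.9 (Python 3.11.15).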

Additional observations from a re-analysis of the deposited data

How the results depend on the processing

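The 12 other settings gave 2 members higher in mimic cells throughout and 2 lower, except with median-centred arrays, where 3 were lower because BMP7 passed. Over the alternatives the difference of GDF15 ran between 2.24 and 2.35 and that of BMP4 between -0.69 and -0.59. Genes passing numbered 3392 in the reported setting and 3412 median-centred, 3320 with quantile normalization, 3076 with no filter, 3864 with the stricter filter and 2923 without the trend. Leaving out 1 array gave 2105 (without the second mimic array) to 2704 genes, and 2193 without the third control array. Same-numbered deviations of mimic and control arrays correlated at 0.142, -0.0497 and 0.182, and differently numbered ones at -0.226 to 0.115. With 3 arrays per group these values cannot decide whether the replicate numbers pair the samples. With the number as a replicate block 2545 genes passed, 2 members were higher and 2 lower. Pathway genes that passed numbered 21 in the reported setting, 16 with the block and 15 to 22 over all alternatives. Signs turned for genes near 0 that passed in no setting: ACVR1 (-0.0054 median-centred), ACVR2A (0.011 with quantile normalization) and TFEB (-0.017 median-centred, -0.013 with quantile normalization). Leaving out 1 array gave INHBA -0.025 to 0.124, ACVR1C -0.023 to 0.218, ACVR2A -0.044 to 0.012, ACVR2B -0.032 to 0.017, AMHR2 -0.068 to 0.018 and TFEB -0.013 to 0.051. The cause was not tested. Members had no second probe set to try, and INHBA, INHBB and TGFB3 had no value under the stricter filter.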
